A study of Rattus norvegicus with 6 samples.

Results

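The Myc network genes examined here are *Myc*, *Mycn*, *Mycl*, *Max*, *Mxi1*, *Mxd3*, *Mxd4*, *Mnt* and *Mlx*. They were chosen by symbol, and all 9 were found among the 17337 gene names in the tables of mRNA levels. The cells were cortical neural progenitors, cultured from Sprague Dawley rats at embryonic day 14 with bFGF and EGF at 20 ng/ml each and collected after the second passage. Cells were untreated and 1 condition was sampled. PolyA-selected RNA was sequenced from biological replicate A as technical libraries A1 and A2, and from biological replicate B as B1 and B2, which gives n = 2. Embryos of either sex were used, and the labels do not give the number of embryos or litters behind a culture. The 2 Start-seq samples, which profile short capped RNA at start sites, were not analysed here.

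Proteins of this network bind DNA as pairs through a basic helix-loop-helix leucine zipper, and the pairs recognise the E-box, CACGTG. Max is the shared partner. Myc, N-Myc and L-Myc pair with Max to activate genes of growth and proliferation, whereas Mxd proteins, Mxi1 and Mnt pair with Max, recruit Sin3 corepressors and repress. Mlx is a Max-like protein that pairs with Mondo proteins, Mnt and some Mxd proteins. N-Myc is known for its part in the expansion of progenitors in the embryonic brain.

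The depth was read as the mean read coverage that corresponds to 1 FPKM, the number of fragments scaled to transcript length and library depth. It was between 22.7 and 24.4 in A1, A2 and B1 and 6.83 in B2. Markers of the labelled cell type were present, with 9 of 9 neural progenitor markers analysed at a mean FPKM of 1 or more. Their summed level was 20990 to 23066 FPKM in A1 and A2 and 10060 to 10831 FPKM in B1 and B2, and *Hes5* and *Fabp7* met the criterion given below, lower in B. Without *Fabp7*, the most abundant of them, the sum of the other 8 was 4190 and 4509 FPKM in A1 and A2. It was 3540 and 5345 FPKM in B1 and B2. Most of this sum was *Vim*, at 2882 and 3171 FPKM in A1 and A2 and 2652 and 4458 FPKM in B1 and B2. Of these 8, 4 had a higher mean in B, but their libraries overlapped. Of all 9, 4 were lower in B without overlap (*Fabp7*, *Hes5*, *Sox2* and *Notch1*) and 0 were higher without overlap. The criterion was met by 4.78% of all genes that were higher in B and 1.42% that were lower. Of 10 mesenchymal and meningeal markers, 9 met it and were higher in B. Their summed level ranged from 671 to 693 FPKM in the libraries of A and from 2541 to 3368 FPKM in those of B, and none was at 0 in any library. Of 3 oligodendrocyte lineage markers at this level *Olig1* and *Pdgfra* were higher in B by the criterion, of 4 astrocyte markers *S100b* was lower, and none of 6 neuronal markers met it. No marker of microglia and blood or of endothelial cells, 6 each, reached this level. In bulk RNA, fewer cells of a type and less RNA per cell cannot be told apart.

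All 9 network genes were above the median level of the gene names. Their mean FPKM, with technical libraries averaged within replicates A and B, ran from 8.64 for *Mycl* to 42.0 for *Mycn*, with a median of 25.1. Between 59.6% of gene names, for *Mycl*, and 85.0%, for *Mycn*, had a lower mean. The lowest read coverage behind any of these values was 68.4, for *Mycl* in B2. Read counts per gene are unknown, so no counting interval is given.

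**Figure D1:**
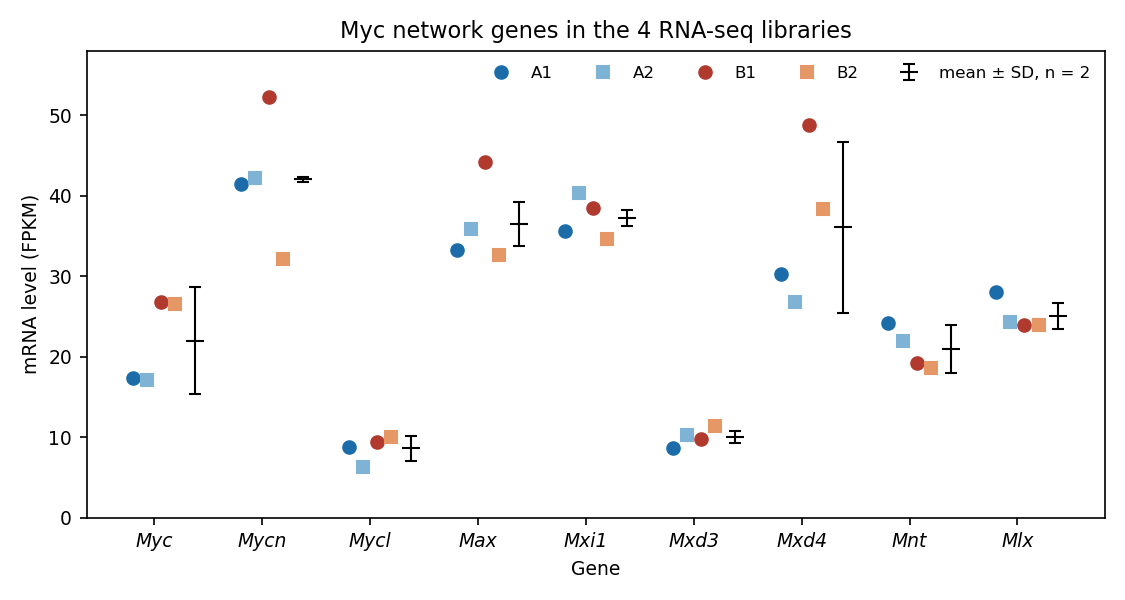
FPKM of each Myc network gene in libraries A1, A2, B1 and B2 (points), with the mean ± SD of replicates A and B (black, n = 2). *Myc* and *Mxd4* lie higher in the libraries of B, and *Mycn* is highest in B1 and lowest in B2, which the SD over replicate means does not show.

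*Mycn*, which encodes N-Myc, lies on the minus strand of chromosome 6 of rn6 (chr6:38222555-38228379). Its level was 41.5 and 42.2 FPKM in libraries A1 and A2, against 52.3 and 32.2 FPKM in B1 and B2. The libraries of A lay between those of B, and the mean was 42.0 ± 0.301 FPKM (SD, n = 2), at rank 2595 of the gene names. This small SD comes from averaging B1 and B2, which differed 1.63-fold. Of the 10481 genes examined, those whose mean FPKM was 1 or more, 8.77% differed at least as much as *Mycn* between B1 and B2 on the log2(FPKM + 1) scale, and 0.792% differed by that much between A1 and A2. The depth was lower in B2 than in B1, and the summed oligodendrocyte lineage markers were at 687 FPKM in B1 and 347 FPKM in B2. Unlike *Mycn*, this sum was lower in A1 (249 FPKM) and A2 (274 FPKM) than in B2, and not all its markers differed between B1 and B2, with *Pdgfra* at 59.5 and 59.4 FPKM. The part of either in the difference was not tested.

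*Myc*, which encodes c-Myc, lies on the plus strand of chromosome 7 (chr7:102586313-102591239). Its level was 17.4 and 17.2 FPKM in libraries A1 and A2, against 26.8 and 26.6 FPKM in B1 and B2. Technical libraries were close to each other, and the libraries of B were higher than those of A without overlap. The mean was 22.0 ± 6.65 FPKM (SD, n = 2), with replicate B 1.54-fold higher than replicate A. The summed mesenchymal and meningeal markers moved in the same direction between A and B and differed between B1 and B2, where *Myc* did not, and their part in the level of *Myc* was not tested. *Mycl*, which encodes L-Myc, on the plus strand of chromosome 5 (chr5:140692852-140696852), was the least expressed member by its mean. It had 8.77 and 6.32 FPKM in A1 and A2, and 9.47 and 10.01 FPKM in B1 and B2. These libraries did not overlap between replicates, but A1 was closer to B1 than to A2.

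*Mycn* made up most of the mRNA of the Myc paralogs in 3 of 4 libraries. FPKM is scaled to length, so the levels of the 3 paralogs were added within each library. The share of *Mycn* in this sum was 61.3% and 64.2% in libraries A1 and A2, against 59.0% and 46.8% in B1 and B2. By replicate it was 58.2% ± 6.39 (SD, n = 2). The share of *Myc* was 29.9% ± 5.64, and it was higher in B1 (30.3%) and B2 (38.7%) than in A1 (25.7%) and A2 (26.2%). The ratio of *Myc* to *Mycn* was 0.420 and 0.407 in libraries A1 and A2, against 0.513 and 0.826 in B1 and B2. This ratio does not depend on the scaling of a library, and it was below 1 in each of the 4.

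*Max*, the common partner, lies on the minus strand of chromosome 6 (chr6:99985519-100011226). It had 33.3 and 35.9 FPKM in libraries A1 and A2, against 44.2 and 32.6 FPKM in B1 and B2, a mean of 36.5 ± 2.72 (SD, n = 2). As for *Mycn*, B1 was the highest library and B2 the lowest, so the replicates overlapped. RefSeq lists 2 *Max* pseudogenes that have no row in the tables, and whether reads were shared with them was not tested. The level of *Max* was 0.206 ± 0.00321 (SD, n = 2) of the summed level of the 3 Myc paralogs and the 4 antagonists *Mxi1*, *Mxd3*, *Mxd4* and *Mnt*. In single libraries this ratio ran from 0.190 in B2 to 0.217 in A2, a wider spread than the SD over replicates.

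Among the antagonists, *Mxi1*, on the plus strand of chromosome 1 (chr1:274049676-274090071), had the highest mean, 37.3 ± 0.984 FPKM (SD, n = 2). Its level was 35.6 and 40.3 FPKM in libraries A1 and A2, against 38.5 and 34.6 FPKM in B1 and B2, with overlap between the replicates. *Mxd4*, on the plus strand of chromosome 14 (chr14:81819415-81830811), had 30.3 and 26.8 FPKM in libraries A1 and A2, against 48.8 and 38.3 FPKM in B1 and B2. Both libraries of B were above those of A, with a mean of 36.1 ± 10.6 FPKM (SD, n = 2) and a 1.53-fold higher level in B. The mesenchymal and meningeal markers were also higher in B, but their sum was lower in B1 than in B2, opposite to *Mxd4*. The oligodendrocyte lineage sum, most of it *Olig1*, was higher in B and higher in B1 than in B2, whereas *Pdgfra* was nearly equal in B1 and B2. The part of either list was not tested.

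*Mnt*, on the plus strand of chromosome 10 (chr10:61685241-61700491), encodes a repressor that is found in dividing as well as resting cells. It had 24.2 and 22.0 FPKM in A1 and A2, and 19.2 and 18.6 FPKM in B1 and B2. *Mnt* was thus lower in B without overlap, with a mean of 21.01 ± 2.97 FPKM (SD, n = 2). *Mxd3*, on the plus strand of chromosome 17 (chr17:9830326-9834052), is known as the Mxd gene of proliferating cells. It had 8.71 and 10.3 FPKM in libraries A1 and A2, against 9.81 and 11.4 FPKM in B1 and B2, with overlap between the replicates and a mean of 10.05 ± 0.790 FPKM (SD, n = 2). The antagonist sum was divided as 35.8% ± 3.51 *Mxi1*, 34.3% ± 7.73 *Mxd4*, 20.3% ± 4.29 *Mnt* and 9.62% ± 0.0689 *Mxd3* (SD, n = 2). Shares of *Mxd4* were 30.6% and 27.0% in libraries A1 and A2, against 42.0% and 37.2% in B1 and B2.

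**Figure D2:**
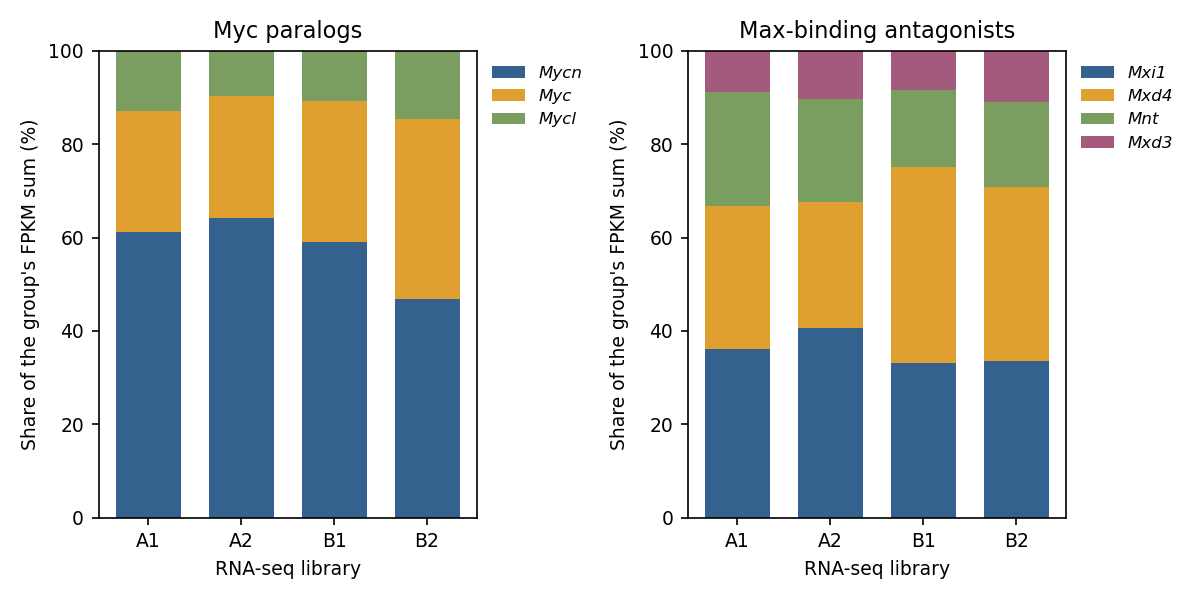
Shares (%) of the FPKM sum of the Myc paralogs (left) and of the Max-binding antagonists (right) in each RNA-seq library. *Mycn* takes the largest share of the paralogs in every library, down to 46.8% in B2, and *Mxd4* takes a larger share of the antagonists in B1 and B2 than in A1 and A2.

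The antagonists together had more mRNA than the Myc paralogs in each library. The paralog sum was 67.6 and 65.6 FPKM in libraries A1 and A2, against 88.6 and 68.7 FPKM in B1 and B2. The antagonist sum was 98.8, 99.4, 116 and 103 FPKM in the same libraries. The ratio of paralogs to antagonists was 0.685, 0.660, 0.761 and 0.668, a mean of 0.695 ± 0.0317 (SD, n = 2 replicates). B1 stood above the other libraries, and B2 fell between A1 and A2. These are ratios of mRNA and not of protein.

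*Mlx*, on the plus strand of chromosome 10 (chr10:88997433-89002152), had 28.1 and 24.3 FPKM in libraries A1 and A2, against 24.0 and 23.9 FPKM in B1 and B2, a mean of 25.1 ± 1.57 (SD, n = 2). The libraries of B were below both of A, by less than A1 differed from A2, and with libraries scaled by their median ratio the replicates overlapped. *Mlx* shares 44 bases with *Psmc3ip*, a gene on the opposite strand with 33.4 to 39.6 FPKM, and the sources used here do not say whether reads were assigned by strand. No other network gene overlapped a listed gene.

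By mean FPKM the order was *Mycn*, *Mxi1*, *Max*, *Mxd4*, *Mlx*, *Myc*, *Mnt*, *Mxd3* and *Mycl*. Of the 8 pairs of neighbours in this order, 7 had overlapping libraries. The exception was *Mnt* above *Mxd3*, so that *Mxd3* and *Mycl* formed a lower group. *Mycn* was the highest member in A1, A2 and B1 and was below *Mxd4*, *Mxi1* and *Max* in B2.

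The spread between the biological replicates was compared with that of all genes. A gene was counted as differing when its mean FPKM was 1 or more, B and A differed by at least 1 on the log2(FPKM + 1) scale, and their libraries did not overlap. None of the 9 network genes met this criterion, against 6.20% of the 10481 genes examined. No test was made, since A and B are replicates of 1 condition. The differences, B minus A, were 0.60 for *Myc*, 0.59 for *Mxd4*, 0.33 for *Mycl*, 0.15 for *Max* and 0.15 for *Mxd3*. They were 0.01 for *Mycn*, -0.05 for *Mxi1*, -0.12 for *Mlx* and -0.28 for *Mnt*. The median absolute difference was 0.15 over the network genes and 0.24 over all genes examined. For the network genes technical libraries differed by as much, with a median of 0.15 for B1 against B2 and 0.17 for A1 against A2. Over all genes these medians were 0.22 and 0.11. For 4 of the 9 network genes the gap between B1 and B2 was larger than that between B and A. The libraries of A and B did not overlap for 5 of the 9 network genes, close to the 60.1% of all genes, and for *Mlx*, 1 of the 5, this did not hold with median-ratio scaling. At a difference of at least 0.58, *Myc* and *Mxd4* were counted, against 9.51% of all genes that were higher in B and 16.5% in either direction. The sign for *Mycn*, *Max* and *Mxi1* turned when a technical library was left out. For *Mycn* it also turned with TPM in place of FPKM (-0.04) and with libraries averaged on the log2 scale (-0.03). The difference for *Mycn* was -0.37 without B1 and 0.32 without B2, and that for *Max* -0.08 and 0.35. For *Mxi1* it was 0.04 without A2 and 0.02 without B2. With any 1 library left out the sign held for the other 6. The difference was 0.14 without A2 and 0.55 without A1 for *Mycl*, 0.04 without A1 or B2 and 0.26 without A2 for *Mxd3*, and -0.22 without A2 and -0.02 without A1 for *Mlx*. It ranged from 0.41 to 0.75 for *Mxd4*, 0.59 to 0.61 for *Myc* and -0.34 to -0.21 for *Mnt*.

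**Figure D3:**
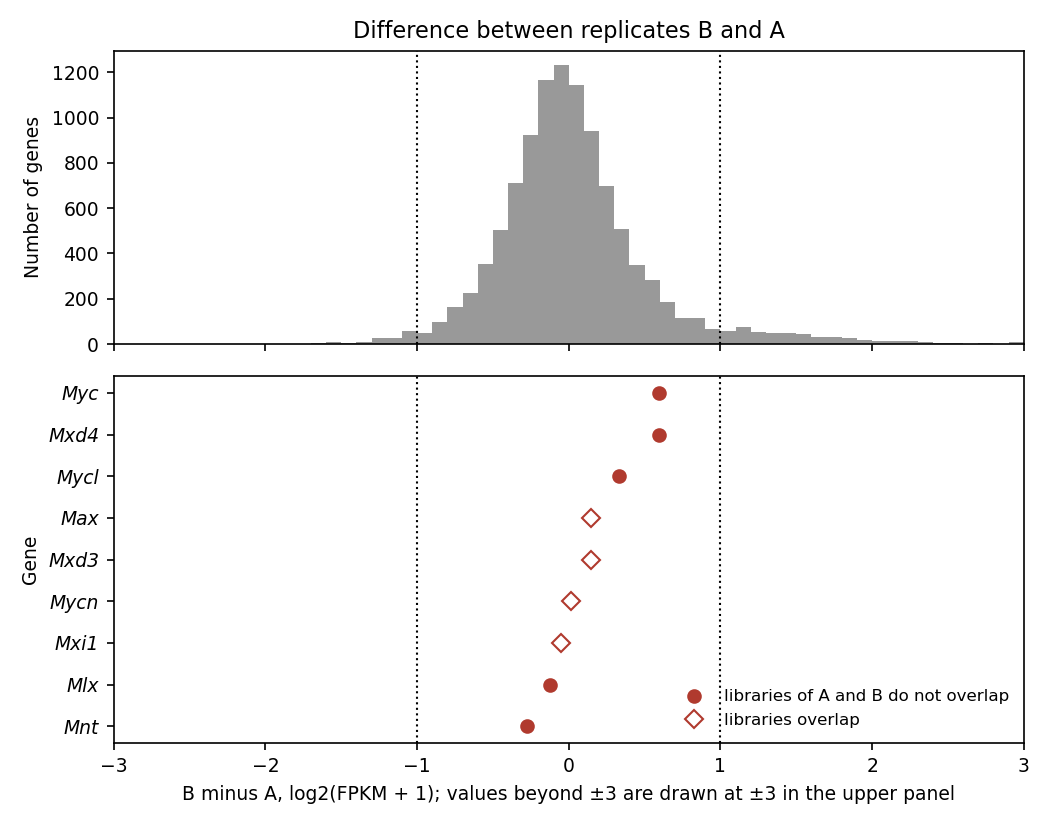
Upper panel, histogram of the difference B minus A on the log2(FPKM + 1) scale over the 10481 genes examined. Lower panel, the same difference for the 9 Myc network genes, all of which lie between the dotted lines at -1 and 1.

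Genes whose values ran most like those of *Myc* and *Mycn* over the 4 libraries were looked up among 6635 other genes at 10 FPKM or more on average. Likeness was the root mean square distance between log2(FPKM + 1) values centred on each gene's own mean. Nearest to *Myc* were *Igsf10* (distance 0.0123), *Cited2* (0.0296) and *Zfp362* (0.0365), which were likewise higher in B1 and B2. For *Mycn* they were *Pnp* (0.0230), *Eif2a* (0.0243) and *Ccdc28a* (0.0264), each highest in B1 and lowest in B2. Over 4 libraries such likeness is common, and 158 genes lay within 0.1 of *Myc* and 114 within 0.1 of *Mycn*.

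Sequences before the gene starts are shown because the E-box bound by the network's own proteins is found there in part of the members. RefSeq promoters of the GRCr8 build, from 250 bases before to 50 after the start, were found for 7 of the 9 genes and not for *Myc* and *Mycn*. The letters CACGTG, which read the same on either strand, were present in 4 of these 7 and in 6.65% of all 27457 promoters. Among 7976 promoters of genes examined here the share was 9.43%. The windows below hold 46 bases in the direction of the gene, with the E-box in capitals. It began 33 bases before the start in *Max* (chr6:101395298-101395343 of GRCr8, minus strand), 197 in *Mxd4* (chr14:80786564-80786609, plus), 123 in *Mnt* (chr10:60197816-60197861, plus) and 70 in *Mlx* (chr10:86519796-86519841, plus).
Max: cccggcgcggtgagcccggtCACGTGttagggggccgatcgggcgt
Mxd4: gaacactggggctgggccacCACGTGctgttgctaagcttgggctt
Mnt: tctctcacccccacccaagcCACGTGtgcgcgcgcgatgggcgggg
Mlx: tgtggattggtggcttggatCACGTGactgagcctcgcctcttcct
*Mycl*, *Mxi1* and *Mxd3* held no such letters in this window. Of the genes with an E-box, *Mxd4* was higher in B and *Mnt* was lower. For *Max* the sign turned without B1, and for *Mlx* the replicates overlapped with median-ratio scaling. A and B are replicates of 1 condition, so these directions cannot show whether the genes respond through the E-box. A match of letters is a description and does not show that a protein was bound.

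Other genes of the network were followed through 8 lists of 97 genes, of which 87 were analysed here and 83 reached a mean FPKM of 1. Of these 83, 1 differed between the replicates by the criterion and was higher in B, against 4.78% of all genes in that direction, and 0 were higher in A, against 1.42%. The count was 4 without B1 (*Slc1a5*, *Ldha*, *Ccnd2* and *Cks2*), 2 without A2 (*Slc1a5* and *Kat2a*) and 2 without B2 (*Slc1a5* and *Cdkn2b*), where genes beyond *Slc1a5* are named after their values were seen. In the same order 8.46%, 6.51% and 5.48% of all genes met the criterion in either direction. *Mxd1*, a further Mxd gene, had 14.3 and 13.0 FPKM in A1 and A2, and 7.97 and 8.50 FPKM in B1 and B2, a mean of 10.9 ± 3.84 (SD, n = 2). It was lower in B without overlap, opposite to *Mxd4*. *Mlxipl*, which encodes a Mondo partner of Mlx also called ChREBP, had a mean of 0.235 ± 0.0406 FPKM (SD, n = 2). Of the 4 genes in the list that holds *Mxd1* and *Mlxipl*, 2 were not analysed.

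Among 8 Sin3 corepressor genes and their associates, *Sin3b* had 178 ± 11.3 FPKM and *Sin3a* 14.3 ± 0.475 FPKM (SD, n = 2), the lowest of the list. *Hdac2*, a histone deacetylase gene, had 165 ± 7.04 FPKM. Of 14 Myc cofactor genes, *Smarcb1*, a chromatin remodelling subunit with 2 loci in the tables, had 123 ± 2.52 FPKM and *Cdk9*, the kinase of pause release, 106 ± 14.6 FPKM. Its cyclin *Ccnt1* had 0.707 ± 0.392 FPKM, the lowest of these genes and below the minimum mean. Of 9 genes that act on Myc protein stability, *Ppp2r5a*, a phosphatase subunit gene, had 56.7 ± 10.8 FPKM. *Aurka*, whose kinase stabilises N-Myc, was the lowest at 8.51 ± 3.02 FPKM (SD, n = 2) and was higher in B without overlap.

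Genes known as Myc targets were divided into 3 lists, with 48 genes that reached a mean FPKM of 1. The 19 genes of nucleolus and ribosome assembly included *Npm1* at 534 ± 76.2 FPKM and *Ncl* at 284 ± 33.6 FPKM, and the lowest was *Polr1b* at 5.31 ± 0.604 FPKM (SD, n = 2). None of them met the criterion, and their median difference was -0.09, against -0.03 for all genes. The 18 genes of metabolism and growth had a median difference of 0.00. They included *Eif4a1* at 450 ± 37.5 FPKM, *Hspe1* at 248 ± 22.3 FPKM and *Shmt1* at 1.66 ± 0.224 FPKM.

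*Slc1a5*, the glutamine transporter gene of this list, was the target that met the criterion. It had 11.6 and 12.1 FPKM in libraries A1 and A2, against 45.03 and 83.4 FPKM in B1 and B2, a difference of 2.35 on the log2(FPKM + 1) scale. Its B libraries also differed from each other, in the same order as the summed mesenchymal and meningeal markers. Within that list *Ptgds* was at 8.18 and 292 FPKM in B1 and B2, and *Lum* had the reverse order, at 147 and 133 FPKM. The astrocyte sum had the same order as *Slc1a5*, at 779 and 1177 FPKM. The oligodendrocyte lineage sum had the reverse order, at 687 and 347 FPKM. The part of these lists was not tested.

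The 11 cell cycle genes had a median difference of 0.53. The libraries did not overlap for 8 that were higher in B (28.1% of all genes) and 1 that was lower (32.0%). None of the 11 met the criterion. In the same order these counts were 5 and 5 of the 19 genes of nucleolus and ribosome assembly. They were 6 and 7 of the 18 genes of metabolism and growth, and 26 and 26 of all 83 genes of the 8 lists. The 8 cell cycle genes higher in B were *Cdk4*, *Ccnd2*, *Mcm4*, *Mcm5* and *Cks2*, which act in proliferation, and *Cdkn1a*, *Cdkn2b* and *Gadd45a*, known for growth arrest. The median and the count thus join genes of both kinds and do not give 1 direction of Myc activity. Of the 8, all but *Cdk4* and *Gadd45a* are named after their values were seen. The 10 mesenchymal and meningeal markers were also higher in B without overlap, with a median difference of 2.04, and their part was not tested. *Cdk4* had 261 ± 23.3 FPKM and *Gadd45a* 61.5 ± 18.6 FPKM (SD, n = 2). *Tert* was at 0.713 ± 0.212 FPKM, below the minimum mean, and is not among the 11. *Ccnd2*, which encodes cyclin D2 and is named here after its values were seen, came closest, with a difference of 0.97 and levels of 17.3 and 17.8 FPKM in A1 and A2 and 29.6 and 41.2 FPKM in B1 and B2. Of 4 examined targets of Mondo and Mlx, *Txnip* was the highest at 155 ± 45.3 FPKM and *Pfkfb3* had 7.58 ± 0.734 FPKM. *Pklr* was at 0.126 ± 0.00488 FPKM, below the minimum mean.

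**Figure D4:**
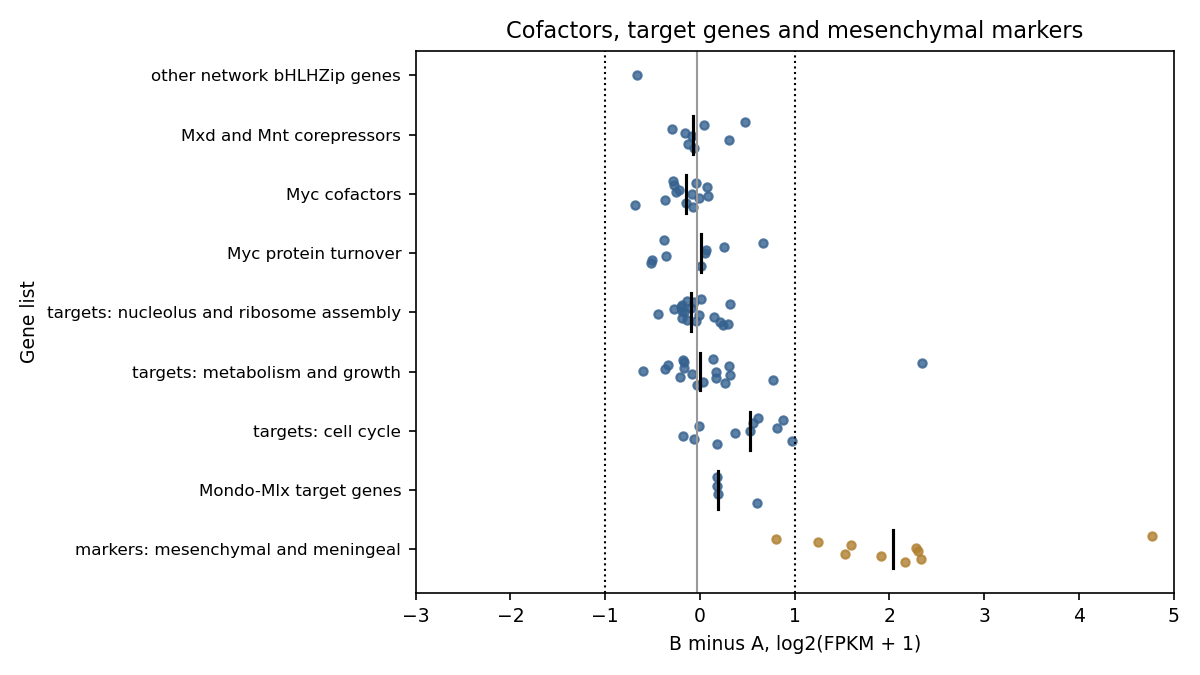
Difference B minus A on the log2(FPKM + 1) scale for genes whose mean FPKM was 1 or more in lists related to the Myc network (blue) and in the mesenchymal and meningeal marker list (ochre). Short black lines are list medians, the grey line is the median of all genes, and *Slc1a5*, at 2.35, is the network list gene beyond the dotted lines at -1 and 1.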

How the data were processed

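PolyA-selected RNA of 4 libraries was examined, grouped into biological replicates A and B by the sample labels. The authors aligned reads to rn6 with STAR, and the labels name StringTie, whose layout the tables have. The methods name Rsubread, a read counter, on the way to FPKM. Tool versions are not given in the sources used here. The deposited FPKM values were used as they stand. TPM, also deposited, served as an alternative. The deposited coverage signal is the mean read depth over a gene and is not scaled for library depth.

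FPKM was summed over rows of a gene name, technical libraries were averaged within a replicate, and mean and SD are over 2 replicates. Differences are on the log2(FPKM + 1) scale, which understates changes of low genes. With 1 condition no p-value was computed. Ranks are among 17337 names. Promoter sequences are from RefSeq. Protein sequences were not used here. Pseudocount, thresholds, unit, scaling and left-out libraries were varied.

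Members and gene lists were chosen with earlier results of these data known. Named genes are all members and, for each other list, the 2 highest and the lowest by mean FPKM and up to 4 that met the criterion, with the 3 genes most like *Myc* and *Mycn*. Genes named outside this rule are marked as such or stand as markers or neighbours. A gene that this rule names is not reported here. The computations were run in Python 3.11.15 (pandas 2.3.3, numpy 2.4.6, matplotlib 3.10.9).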

Additional observations from a re-analysis of the deposited data

Results flagged for a closer look

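The network genes, their sums and ratios and the depth of each library gave 22 sets of 4 values, and in 3 of them a single library stood apart by Dixon's criterion at the 95% level. Chance gives about 1 in 20 for independent samples, which technical pairs are not. *Mlx* had 28.1 FPKM in A1 and 23.9 to 24.3 FPKM elsewhere. The FPKM sum of *Myc*, *Mycn* and *Mycl* was 88.6 in B1 and 65.6 to 68.7 in the others. Coverage per FPKM was 6.83 in B2 and 22.7 to 24.4 elsewhere.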

How the results depend on the processing

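Of 58 values computed under alternative settings, 45 moved by less than the SD over replicates or, for counts, stayed within 1.5 times. The level of a single gene and each ratio without 1 of the 2 replicates are not among the 58, since they cannot move by more than the SD, whereas the median level of the members is. The cause was not tested for the other 13. Network genes differing between A and B numbered 2 (*Myc* and *Mxd4*) in place of 0 at a difference of at least 0.58, and 0 under each other setting computed. Genes of the other lists numbered 11 in place of 1 at 0.58 and 3 with a pseudocount of 0.1 (*Slc1a5*, *Ccnd2* and *Cdkn2b*), and ranged from 1 without A1 to 4 without B1 with a technical library left out, with 2 without A2 and 2 without B2. With 1 replicate left out the median level of the members ranged from 26.2 to 26.7 FPKM, against 25.1. Leaving out B2 gave 47.1 FPKM for *Mycn*, 39.4 FPKM for *Max* and 0.212 for *Max* over its partners. With *Mxd1* among the antagonists, an alternative chosen after seeing the data, that ratio was 0.194 and the ratio of paralogs to antagonists 0.629. The number of all genes counted was 650 (6.20%), with 1725 (16.5%) at 0.58 and 900 (8.59%) with a pseudocount of 0.1. At a mean FPKM of 10 or more it was 331. No paired analysis was possible because there is 1 condition and no test was made. Coverage was lowest in B2, and without read counts its counting error is unknown.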
